A study of Mus musculus with 6 samples.

Results

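The genes described here are 8 genes of catecholamine synthesis, breakdown and sensing, namely *Th*, *Ddc*, *Dbh*, *Maoa*, *Drd2*, *Adrb1*, *Adra1a* and *Adra1b*, chosen by name from the 23792 gene rows of a heart RNA-seq table. Each was matched to 1 row. The RNA came from heart ventricles of male mice of a mixed C57BL/6-FVB background, 6 to 8 weeks old. All mice carried 2 transgenes, a tetracycline transactivator driven by the αMHC promoter, which is active in cardiomyocytes, and HIF-PPN, a HIF1α mutated so that it is not degraded in normal oxygen. The 3 control mice stayed on doxycycline, which holds the transgene off, and the 3 HIF-PPN mice were taken off it for 3 days. The presence of doxycycline therefore cannot be told apart from the absence of HIF-PPN. Values are FPKM (fragments per kilobase of exon, normalised to library size), a scale on which levels of genes of different length can be compared. The authors' table gives 1 FPKM value per gene for each group, with the mice of a group already merged. There is thus no spread between mice, no test and no known depth behind any value below, and each log2 ratio below divides the value of HIF-PPN hearts by that of control hearts.

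Catecholamines are made from tyrosine in a fixed order. Tyrosine hydroxylase (*Th*) makes L-DOPA in the rate-limiting step, aromatic L-amino acid decarboxylase (*Ddc*) turns it into dopamine, and dopamine β-hydroxylase (*Dbh*) turns dopamine into noradrenaline inside secretory vesicles. In the heart, noradrenaline comes mainly from sympathetic nerve endings, whose cell bodies lie in ganglia outside the organ. It raises heart rate and force mainly through the β1 receptor (*Adrb1*), which couples to Gs, while the α1 receptors (*Adra1a*, *Adra1b*) couple to Gq and the dopamine D2 receptor (*Drd2*) couples to Gi. Monoamine oxidase A (*Maoa*) breaks catecholamines down at the outer mitochondrial membrane.

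Of the 8 genes, 7 reached 1 FPKM in control hearts and 5 did so in HIF-PPN hearts. *Drd2* and *Dbh* were the genes that were above this level in control hearts and below it in HIF-PPN hearts, and *Th* was below it in both. Of the 7 genes with at least 1 FPKM in at least 1 group, 6 were lower and 1 was higher in HIF-PPN hearts, with a median log2 ratio of −0.78. Among them, 3 were at least 2-fold lower (*Drd2*, *Dbh* and *Ddc*) and 0 at least 2-fold higher. Of all 12098 genes with a value above 0 in both groups that passed the same filter, 1.09% were at least 2-fold lower and 2.11% at least 2-fold higher, and the median was 0.012. *Drd2*, *Dbh*, *Ddc* and *Maoa* had means between 1 and 5 FPKM, a range in which 1.74% of 3444 genes were at least 2-fold lower and 3.89% at least 2-fold higher. The 8 genes were chosen with earlier results of these hearts known, so these counts describe them and are no evidence of a direction.

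**Figure D1:**
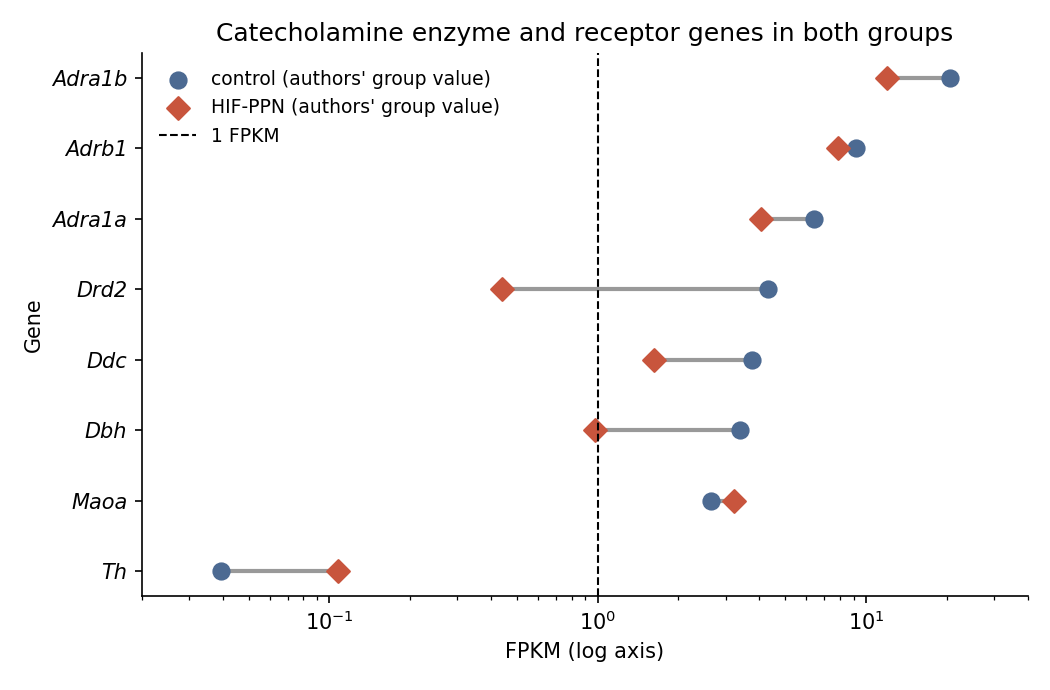
FPKM of the 8 genes on a log axis, with the authors' value for the control group (circles) and for the HIF-PPN group (diamonds) joined by a line and 1 FPKM as a dashed line. *Drd2* spans the widest gap among the genes above 1 FPKM (4.33 and 0.441 FPKM), *Maoa* moves little (2.64 and 3.22 FPKM), and *Th* stays far to the left of the dashed line.

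The first enzyme of the pathway and the later ones were at very different levels. *Th* (chromosome 7 of GRCm38, 142892776 to 142899966) was at 0.0392 FPKM without and 0.107 FPKM with HIF-PPN. Its log2 ratio of 1.45 rests on values far below 1 FPKM and dropped to 0.091 with a pseudocount of 1 FPKM added to both values. *Ddc* (chromosome 11, 11814101 to 11898144) was at 3.76 FPKM without and 1.62 FPKM with HIF-PPN, a 2.32-fold lower level (log2 ratio −1.22). *Dbh* (chromosome 2, 27165507 to 27183204) was at 3.40 FPKM without and 0.973 FPKM with HIF-PPN, 3.49-fold lower (log2 ratio −1.81). Both enzymes that act after *Th* were thus lower with HIF-PPN, and *Dbh* stood just under 1 FPKM there. In control hearts *Dbh* was 86.7 times and *Ddc* 95.8 times the level of *Th*, and in HIF-PPN hearts 9.08 and 15.1 times. These multiples divide by *Th* values far below 1 FPKM, so their size and their change between groups are uncertain. *Ddc* and *Dbh* were at nearly the same level in control hearts (ratio 1.11), and *Ddc* was 1.66 times *Dbh* in HIF-PPN hearts.

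The last step, from noradrenaline to adrenaline, went the other way. *Pnmt*, the methyltransferase of that step, was at 0.990 FPKM without and 2.20 FPKM with HIF-PPN (log2 ratio 1.15). It passed the filter only through its HIF-PPN value, so it had to count as higher. *Dbh* was at 3.43 times the level of *Pnmt* in control hearts and at 0.442 times its level in HIF-PPN hearts. Tyrosine hydroxylase needs tetrahydrobiopterin, and 4 of the 5 genes that make or recycle this cofactor lay within 0.12 of 0 on the log2 scale. *Qdpr*, which regenerates it, was at 62.5 and 60.3 FPKM, *Spr* of its synthesis at 60.1 and 55.5 FPKM, and *Pts*, also of its synthesis, at 49.3 and 48.0 FPKM. The fifth, *Pcbd1*, which acts in its recycling, was at 1.46 FPKM without and 3.91 FPKM with HIF-PPN (log2 ratio 1.42).

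The promoters of the 3 genes that were lower by at least 2-fold are shown with that of *Th*, the first enzyme of the same pathway, because HIF1 binds hypoxia response elements with the core ACGTG or GCGTG. Each window holds the 250 bases before a RefSeq transcription start in GRCm38.p6, printed 5′ to 3′ on the gene's strand. Capitals mark matches, on either strand, to ACGTG, to GCGTG, to the E-box CACGTG, which contains ACGTG, and to the cAMP response element TGACGTCA, which was added to the search after the values were seen.
Drd2 promoter, chr9:49340153-49340402, plus strand: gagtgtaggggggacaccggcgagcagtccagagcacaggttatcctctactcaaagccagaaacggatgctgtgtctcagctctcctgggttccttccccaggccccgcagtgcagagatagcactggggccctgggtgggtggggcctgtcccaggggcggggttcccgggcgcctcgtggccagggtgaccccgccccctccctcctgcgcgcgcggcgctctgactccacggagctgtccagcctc
Dbh promoter, chr2:27165257-27165506, plus strand: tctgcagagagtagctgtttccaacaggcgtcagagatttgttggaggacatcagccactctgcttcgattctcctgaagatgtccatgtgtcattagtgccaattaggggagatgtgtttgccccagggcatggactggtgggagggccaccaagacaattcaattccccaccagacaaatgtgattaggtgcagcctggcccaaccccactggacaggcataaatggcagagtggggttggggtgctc
Ddc promoter of the upstream start, chr11:11898145-11898394, minus strand: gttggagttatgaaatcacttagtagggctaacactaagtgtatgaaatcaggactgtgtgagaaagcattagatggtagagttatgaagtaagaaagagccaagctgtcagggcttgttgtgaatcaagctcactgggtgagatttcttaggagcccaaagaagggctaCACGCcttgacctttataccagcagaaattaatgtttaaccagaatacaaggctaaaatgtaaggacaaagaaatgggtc
Th promoter, chr7:142899996-142900245, minus strand: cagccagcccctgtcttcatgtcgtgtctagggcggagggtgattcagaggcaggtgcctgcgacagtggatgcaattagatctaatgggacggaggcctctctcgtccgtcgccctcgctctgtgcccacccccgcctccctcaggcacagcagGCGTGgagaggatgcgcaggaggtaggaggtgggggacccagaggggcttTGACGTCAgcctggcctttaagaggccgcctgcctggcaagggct

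The *Drd2* and *Dbh* windows hold none of these motifs. The *Drd2* window ends at 49340402, and the positions given with its FPKM begin only at 49340662. The bases between were not searched, so its lack of a match covers the RefSeq start alone. The *Ddc* window holds 1 GCGTG on its other strand, whose match begins 80 bases before the start, and the window of a second *Ddc* start (chr11:11890409-11890658) holds none. The *Th* window holds a GCGTG that begins 95 bases and a TGACGTCA that begins 45 bases before the start. RefSeq windows were matched for 7 of the 8 genes, 9 windows in all. GCGTG was found in 3 of them, the third being that of *Adrb1*, ACGTG and CACGTG in 0, and TGACGTCA in 1. Of all 32851 windows in the table, 28.2% hold GCGTG, 16.6% ACGTG, 6.02% CACGTG and 1.55% TGACGTCA. A match is a run of letters, and binding to these windows was not measured in the data used here.

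*Drd2*, the gene of the D2 receptor, had the largest difference of the 8 genes on the log2 scale. It lies on chromosome 9 from 49340662 to 49407214 and was at 4.33 FPKM without and 0.441 FPKM with HIF-PPN, a 9.81-fold lower level (log2 ratio −3.29). It ranked the fifth lowest by log2 ratio among the 12098 genes. *Dbh* ranked 35 and *Ddc* 89 from the lowest. A pseudocount of 1 FPKM moved the value of *Drd2* to −1.89 and that of *Dbh* to −1.16, both still past 2-fold, and that of *Ddc* to −0.86, inside it. *Drd2* made up 97.0% of the summed FPKM of the 5 dopamine receptor genes in control hearts and 79.2% in HIF-PPN hearts. The other receptors were near or at 0, with *Drd1* at 0.0231 and 0.0168 FPKM, *Drd3* at 0.112 and 0.0988 FPKM, and *Drd4* and *Drd5* listed at 0 in both groups.

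**Figure D2:**
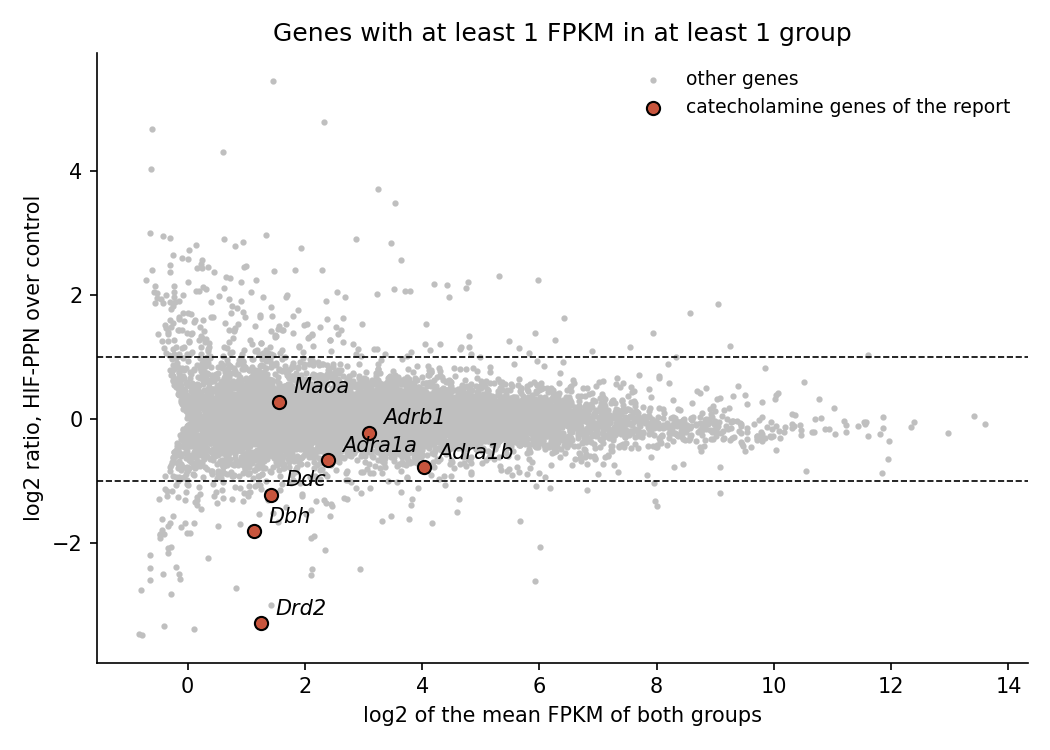
Log2 fold change of HIF-PPN over control against the log2 of the mean FPKM of both groups, for the 12098 genes with at least 1 FPKM in at least 1 group and a value above 0 in both. Dashed lines mark 2-fold. *Drd2*, *Dbh* and *Ddc* lie below the lower line, the adrenergic receptor genes lie between it and 0, and *Maoa* lies above 0.

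The α1 receptor genes and *Adrb1* were lower in HIF-PPN hearts, by less than 2-fold each. *Adra1b* (chromosome 11, 43774605 to 43901237), the most abundant of the 8 genes in both groups, was at 20.6 FPKM without and 12.0 FPKM with HIF-PPN (log2 ratio −0.78). *Adra1a* (chromosome 14, 66635251 to 66771168) was at 6.41 and 4.05 FPKM (log2 ratio −0.66). *Adra1d*, the third α1 receptor gene, was at 2.76 and 1.81 FPKM (log2 ratio −0.61), and its row spans 477413 bases, a merged locus that may hold other genes. The α1 receptor genes were thus lower by similar factors, from 1.53 to 1.71. Their sum was 29.7 FPKM without and 17.9 FPKM with HIF-PPN, with *Adra1b* making up 69.2% and 67.2% of it.

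Of the β receptor genes, *Adrb1* (chromosome 19, 56722372 to 56724862) was at 9.14 FPKM without and 7.87 FPKM with HIF-PPN (log2 ratio −0.22). *Adrb3*, the β3 receptor gene that is known from adipocytes, was at 0.222 and 0.615 FPKM, below 1 FPKM in both groups. The α2 receptor genes, which encode Gi-coupled receptors, were all below 1 FPKM, with *Adra2a* listed at 0 in control hearts and at 0.0216 FPKM in HIF-PPN hearts, *Adra2b* at 0.275 and 0.511 FPKM, and *Adra2c* at 0.218 and 0.0922 FPKM.

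*Adra1b* ranked 246, *Adra1a* 365 and *Adrb1* 2336 from the lowest log2 ratio among the 12098 genes, so *Adrb1* lay well inside the bulk of genes. From the highest to the lowest level, the order in control hearts was *Adra1b*, *Adrb1*, *Adra1a*, *Drd2*, *Ddc*, *Dbh*, *Maoa* and *Th*. In HIF-PPN hearts the first 3 places were the same and *Maoa*, *Ddc*, *Dbh*, *Drd2* and *Th* followed. *Drd2* moved from the fourth place to the seventh and *Maoa* from the seventh to the fourth. Which neighbours in these orders differ beyond the spread between mice cannot be read from merged values.

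*Maoa* was the only one of the 7 genes above the filter with a higher HIF-PPN value. It lies on chromosome X from 16619698 to 16687812 and was at 2.64 FPKM without and 3.22 FPKM with HIF-PPN (log2 ratio 0.29), at rank 2043 from the highest. *Maob*, which encodes the other monoamine oxidase and is the next gene on the same chromosome 21.5 kb away, was at 43.9 and 32.8 FPKM (log2 ratio −0.42). *Maob* was at 16.6 times the level of *Maoa* in control and 10.2 times in HIF-PPN hearts, so that the sum of both was 46.5 and 36.0 FPKM. *Aldh2*, which oxidises the aldehydes that monoamine oxidases produce, was at 128 and 140.2 FPKM (log2 ratio 0.13), and the sulfotransferase gene *Sult1a1* was at 19.5 and 20.1 FPKM. All 7 genes of breakdown stayed within 2-fold, 5 higher and 2 lower, with a median of 0.13.

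The wider catecholamine lists put the 8 genes among 60 genes, all of which were found in the table. Of the 39 that passed the filter, 3 were at least 2-fold lower, and all 3 are among the 8 genes described here. Another 2 were at least 2-fold higher, *Pnmt* and *Pcbd1*, and 34 lay within 2-fold. *Drd2* and *Dbh* passed only through their control values and *Pnmt* only through its HIF-PPN value. Over all 12098 genes that passed, 1.09% were at least 2-fold lower and 2.11% at least 2-fold higher. The median was −0.013 over the 39 genes and 0.034 over the 32 that are not among the 8, close to the median of 0.012 over all genes that passed. Of the 12 genes of storage and transport, 4 passed the filter and none of these differed by 2-fold. They include the vesicular monoamine transporter gene *Slc18a2* (1.63 and 1.41 FPKM), the vesicle cytochrome gene *Cyb561* (9.80 and 11.9 FPKM) and the organic cation transporter gene *Slc22a3* (4.19 and 4.33 FPKM). *Slc6a2*, which encodes the noradrenaline transporter of sympathetic nerve endings, was at 0.0400 and 0.0216 FPKM.

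Downstream of the receptors, the 8 G protein α subunit genes that passed the filter all lay within 2-fold, with a median of 0.042. *Gnas*, which encodes Gs, was at 564 and 640.0 FPKM (log2 ratio 0.18), *Gnai2* of the Gi family at 123 and 154 FPKM (0.32), *Gna11* of the Gq family at 31.8 and 32.1 FPKM (0.013), and *Gnai3* at 17.7 and 18.6 FPKM (0.071). *Gnai1*, named because it was the lowest, was at 3.01 and 1.89 FPKM (log2 ratio −0.67). The 6 receptor kinase and arrestin genes that passed lay between −0.23 and 0.26 (median 0.040). They include *Grk2*, whose kinase phosphorylates active β receptors, at 24.2 and 25.1 FPKM, *Grk5* at 10.2 and 12.1 FPKM, *Grk6* at 10.7 and 11.1 FPKM, and the β-arrestin gene *Arrb1* at 11.2 and 9.53 FPKM.

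**Figure D3:**
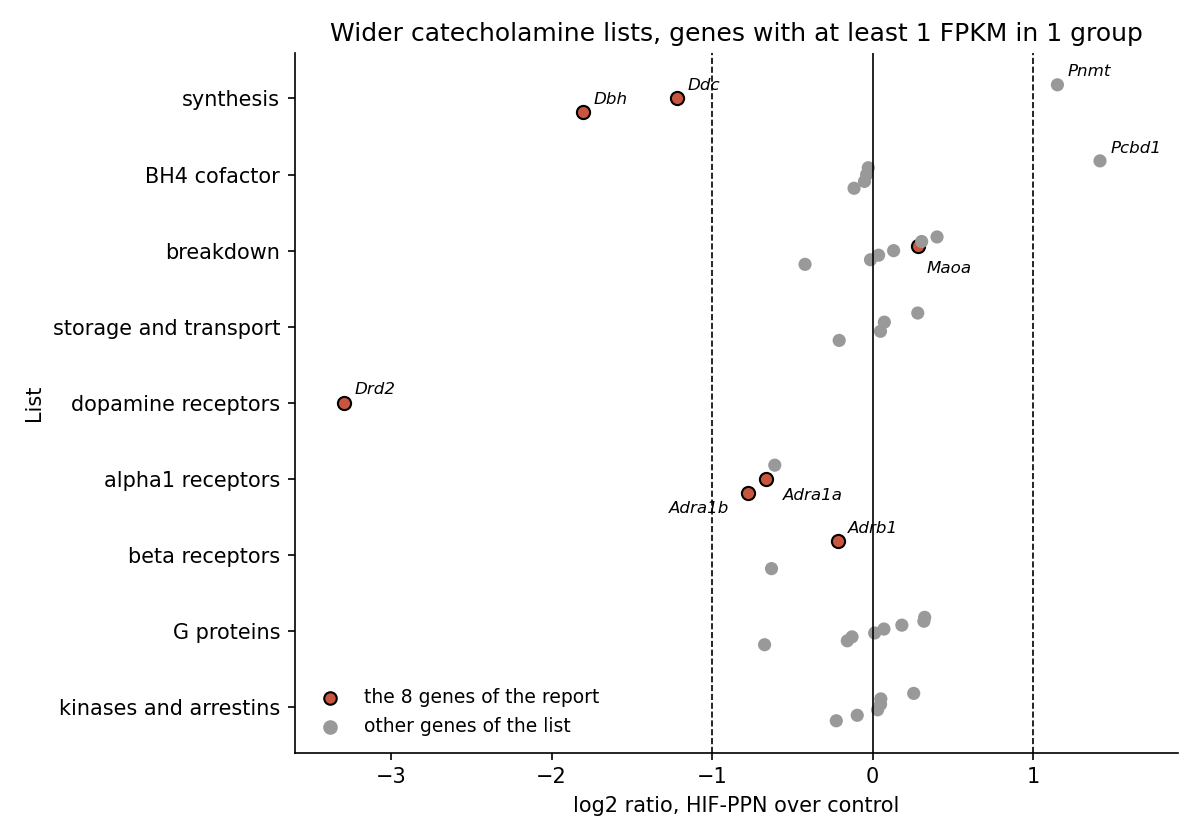
Log2 fold change of HIF-PPN over control (horizontal axis) for the 39 genes of the wider catecholamine lists that passed the filter, 1 row per list, with the genes of the report in red and the other genes in grey. Dashed lines mark 2-fold. *Drd2*, *Dbh* and *Ddc* lie left of −1, *Pnmt* and *Pcbd1* lie right of 1, and the lists of cofactor, breakdown, transport, G protein and receptor kinase genes otherwise lie around 0.

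In whole tissue, fewer cells of a type and less RNA per cell cannot be told apart, so markers of the cells that could hold these transcripts are given beside the members. Of 26 sympathetic neuron and chromaffin markers, a list that includes *Th*, *Dbh*, *Ddc* and *Pnmt*, 17 were below 1 FPKM in both groups. *Chga*, *Snap25* and *Hand1* were listed at 0 in control hearts and none at 0 in HIF-PPN hearts. The list summed to 23.6 FPKM without and 26.6 FPKM with HIF-PPN. This difference is smaller than that of *Uchl1* alone, given below, so the other markers together were lower with HIF-PPN. That lower sum rests on the members *Dbh* and *Ddc*, with differences of −2.43 and −2.14 FPKM. With *Uchl1*, *Dbh* and *Ddc* all left out, the remaining markers together were higher with HIF-PPN. Of the 9 markers that passed, 2 were at least 2-fold lower, *Dbh* and *Ddc*, of which *Dbh* passed only through its control value. Another 3 were at least 2-fold higher, *Pnmt*, the deubiquitinase gene *Uchl1* (3.15 and 7.65 FPKM) and the neuronal tubulin gene *Tubb3* (0.601 and 1.44 FPKM), of which *Pnmt* and *Tubb3* passed only through their HIF-PPN values. *Stmn2*, which encodes a neuronal microtubule regulator, was at 4.63 and 4.26 FPKM. Counted by sign alone, 6 of the 9 were lower and 3 higher, the lower ones besides *Dbh* and *Ddc* being *Slc18a2* (log2 ratio −0.21), *Syp* (−0.17), *Stmn2* (−0.12) and *Ret* (−0.11).

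**Figure D4:**
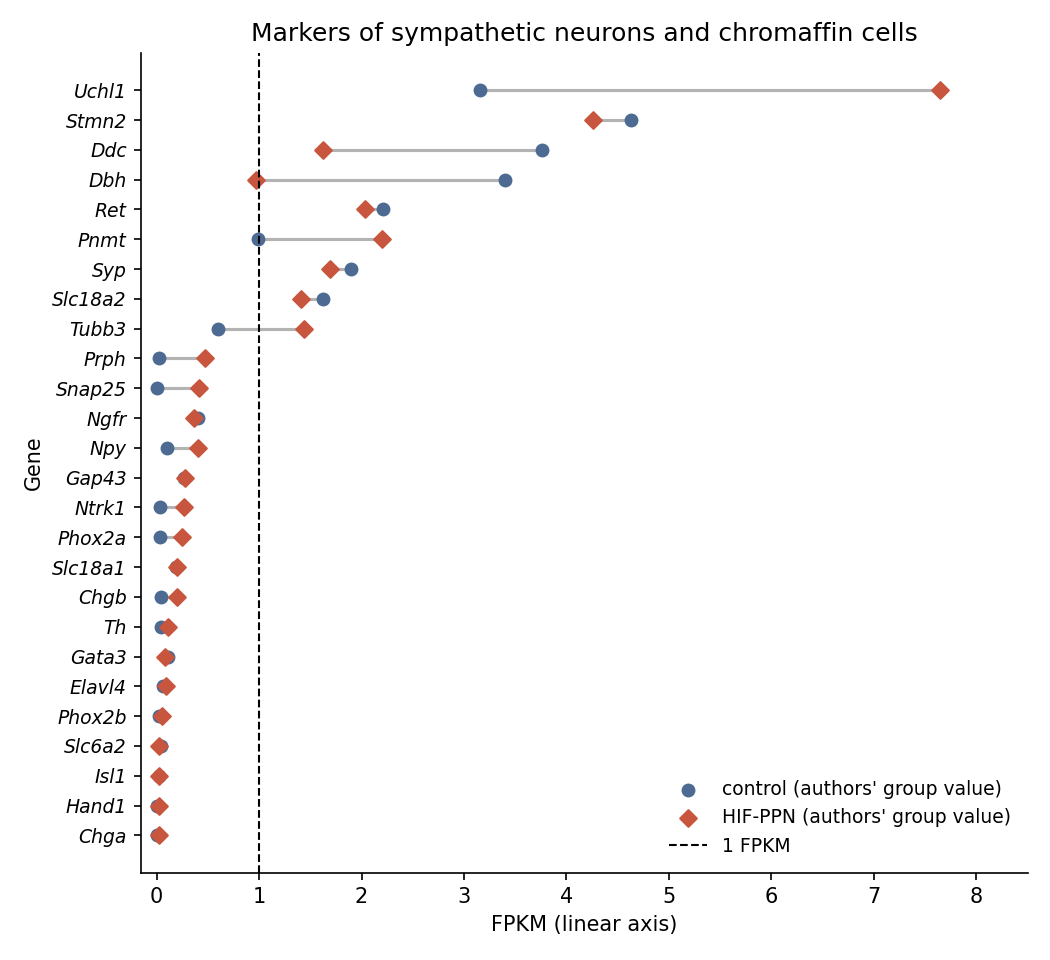
FPKM on a linear axis of 26 sympathetic neuron and chromaffin markers, with the authors' value for the control group (circles) and the HIF-PPN group (diamonds). Of these genes, 17 lie left of the dashed line at 1 FPKM in both groups, *Th* among them, while *Ddc* and *Dbh* lie between 3 and 4 FPKM in control hearts.

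Cardiomyocyte transcripts dominated both groups. All 8 ventricular cardiomyocyte markers were lower, within 2-fold, with a median of −0.12 and the myosin light chain gene *Myl2* at 12804 and 12096 FPKM. Of 6 atrial markers, 5 were lower (median −0.33), and the list summed to 2629 FPKM without and 1915 FPKM with HIF-PPN. Adipocyte markers stood higher, with 6 of the 8 that passed at least 2-fold higher (median 2.04), among them *Ucp1* (1.72 and 12.9 FPKM), *Adipoq* (1.55 and 8.24 FPKM) and *Cidec* (1.30 and 5.07 FPKM). *Plin1* and *Retn*, also among the 6, passed only through their HIF-PPN values. *Cfd* was at 4.98 and 21.0 FPKM in a row that spans 672333 bases, a merged locus that may hold other genes. Their whole list of 10 summed to 960 FPKM without and 1326 FPKM with HIF-PPN, and none was at 0. Most of both sums was *Fabp4*, at 916 and 1233 FPKM (log2 ratio 0.43). Markers of smooth muscle (6 genes, median 0.072), endothelium (6 genes, −0.060) and fibroblasts (6 genes, −0.21) all stayed within 2-fold. In smooth muscle, *Acta2* stood out at 82.2 and 45.0 FPKM. The part of these markers in the values of the catecholamine genes was not tested.

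The genes closest to *Drd2*, *Dbh* and *Ddc* in both levels were named by their distance on the log2 scales of the 2 groups. Nearest to *Drd2* were *Kcne1*, a potassium channel subunit gene (4.74 and 0.590 FPKM, distance 0.44), *Tnni2*, which encodes the troponin I of fast skeletal muscle (3.06 and 0.461 FPKM, distance 0.50), and *Peg3os* (2.10 and 0.445 FPKM, distance 1.04). Nearest to *Dbh* were the secreted protein gene *Spon2* (3.34 and 0.997 FPKM, distance 0.044), the Wnt antagonist gene *Sfrp5* (3.46 and 1.19 FPKM, distance 0.29) and *Ddit4l* (2.83 and 0.872 FPKM, distance 0.31). Nearest to *Ddc* were *Gm10635* (3.55 and 1.57 FPKM, distance 0.097), the immediate early gene *Fos* (3.70 and 1.49 FPKM, distance 0.12) and *Tmem86b* (3.38 and 1.68 FPKM, distance 0.16). Likeness over 2 merged values says only that these genes had similar levels.

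Of the genes next to the members on the chromosome, without overlap, that had a value above 0 in both groups, none was at least 2-fold lower. *Sardh*, 5.19 kb from *Dbh*, was at 3.61 and 3.50 FPKM (log2 ratio −0.043), and *Dbhos* on the other side was listed at 0 in control hearts and at 0.0137 FPKM in HIF-PPN hearts. *Fignl1*, 5.12 kb from *Ddc*, was at 0.549 and 1.43 FPKM (log2 ratio 1.38), and *Grb10*, 32.4 kb away on the other side, at 28.8 and 21.4 FPKM (−0.43). Beside *Drd2*, *Gm4894* was listed at 0 in both groups and *Ankk1*, 7.02 kb away, at 0.0477 FPKM in control hearts and 0 in HIF-PPN hearts. *Ttc1* beside *Adra1b* was at 20.9 and 22.4 FPKM (0.10), *Dpysl2* beside *Adra1a* at 9.68 and 9.92 FPKM (0.035) and *Nhlrc2* beside *Adrb1* at 10.1 and 10.2 FPKM (0.019). *Stmn4*, on the other side of *Adra1a*, was at 0.340 and 0.231 FPKM. The genes next to *Th* (*Ins2* and *Ascl2*), the other neighbours of *Adrb1* (*Tdrd1*) and *Adra1b* (*Il12b*), and that of *Maoa* (*Ppp1r2-ps9*) were listed at 0 in both groups. In RefSeq, *Ddc* overlaps the non-coding genes *Gm51937* and *1700042O10Rik*, and *Drd2* overlaps the non-coding gene *Gm46111*. *1700042O10Rik* was at 0.161 and 0.0739 FPKM, more than 2-fold lower (log2 ratio −1.12) but far below 1 FPKM in both groups. Whether reads were counted by strand is not given in the sources used here, so reads of such overlapping genes could be shared.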

How the data were processed

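RNA from the ventricles of 3 control and 3 HIF-PPN mice was enriched for poly A RNA and sequenced in paired ends. The authors aligned reads by Tophat and Bowtie, on an older NCBI build and in a later run on mm10, and Cufflinks and Cuffdiff gave the gene values. The deposited values are FPKM, 1 per gene and group, merged by the authors over mice, so depth per sample is unknown, and intervals, p-values and leaving out a mouse were not possible. A column of the authors' own log2 fold changes was not used. File positions of the 8 members overlap their genes in RefSeq of GRCm38.p6, as do 99.2% of 22031 rows matched by name and chromosome, and are printed from 1. *Hif1a* was at 35.3 FPKM without and 25.9 FPKM with HIF-PPN, and whether transgene reads were counted there was not tested.

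The filter was 1 FPKM in at least 1 group with values above 0 in both, and the fold threshold was 2, with no pseudocount. The window of 1 to 5 FPKM was chosen after the values were seen. The members and lists were chosen with earlier results of these data known. Lists covered synthesis, tetrahydrobiopterin, breakdown, storage and transport, receptors, G proteins, receptor kinases and arrestins, and markers of 9 cell types. Genes named are the 8 members, up to 4 per list (past 2-fold first, then the most abundant), the nearest gene in the table on each side, and the 3 genes nearest in both levels to each member past 2-fold. Genes named outside this rule are receptor family members and transporters below 1 FPKM, *Gnai1*, *Acta2*, *Fabp4* and members of stated counts, chosen after their values were seen. Some genes of the lists are counted but not reported here. Functions were tested on simulated data. Python 3.11.15, numpy 2.4.6, pandas 2.3.3 and matplotlib 3.10.9 were used.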

Additional observations from a re-analysis of the deposited data

How the results depend on the processing

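No paired analysis was possible because the table holds 1 merged value per group, and no replicate could be left out. Of 68 alternatives to the counts and medians, 51 kept their value (a count within 1.5 times, a median within 0.1), 13 moved and 4 changed sign. For the 8 members, requiring 1 FPKM in both groups removed *Drd2* and *Dbh*, leaving 1 gene at least 2-fold lower and a median of −0.66. With the filter as reported and a threshold of 1.5-fold in place of 2-fold, 5 members and 8 genes of the wider list were lower. With a filter of 0.1 FPKM or none, 1 gene (*Th*) was at least 2-fold higher. For the wider list, requiring 1 FPKM in both groups left 1 gene at least 2-fold lower. The 2 genes at least 2-fold higher became 5 with a filter of 0.1 FPKM or none, 1 with 1 FPKM required in control hearts or in both groups, and 0 with a pseudocount of 1 FPKM or at 3-fold. Its median, near 0, changed sign to 0.031 with a filter of 0.1 FPKM, 0.00013 with 1 FPKM in both groups, 0.013 with no filter and 0.048 when both groups were scaled to the same FPKM sum, a shift of 0.061. No single member changed direction under 32 alternatives of pseudocount and scaling, but none of these could have reversed a member. A pseudocount added to both groups keeps the sign of a ratio. The scalings shifted log2 ratios by −0.010 and 0.061, less than the size of the smallest member ratio (−0.22, *Adrb1*). Values below 1 FPKM, such as those of *Th*, have unknown depth.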

Other observations

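Markers of other cells of the cardiac nerves were at low levels, and which cells held these transcripts was not tested. Of 6 Schwann cell markers, 4 passed the filter and all 4 lay within 2-fold (median 0.030), with the myelin gene *Mbp* at 3.30 FPKM without and 2.58 FPKM with HIF-PPN and *Cnp* at 5.33 and 8.16 FPKM. *Sox10*, the transcription factor of the lineage, was at 0.598 and 0.711 FPKM. Of 4 markers of cholinergic neurons, which carry the parasympathetic supply, only *Ache*, the gene of acetylcholinesterase, passed the filter (1.73 and 1.20 FPKM, log2 ratio −0.53). *Chat*, which makes acetylcholine, was listed at 0 in control hearts and at 0.0464 FPKM in HIF-PPN hearts. The vesicular acetylcholine transporter gene *Slc18a3*, listed at the same positions as *Chat*, was at 0 in both. The choline transporter gene *Slc5a7* was at 0.0571 and 0.188 FPKM.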
